A study of Mus musculus with 6 samples.

Results

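The mature arms of the miR-30 family were followed in small RNA arrays of tau-bound and unbound RNA from mouse hippocampus. The family members were the RNAs named miR-30a to miR-30e, with any copy number or arm, in the authors' deposited table of 2380 named RNAs. Of these, 6 were present: miR-30a-5p, miR-30e-5p, miR-30a-3p, miR-30e-3p, miR-30c-1-3p and miR-30c-2-3p. They are measured by 21 of the 14192 small RNA probes. Both arms were present for miR-30a and miR-30e; other arms of the family were not analysed here.

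The tissue came from PS19 mice, a transgenic line expressing human tau with P301S, a change that causes familial frontotemporal dementia, and from wild-type (WT) mice. As background, the PS19 transgene is driven by the mouse prion protein promoter, while WT mice have their own tau only. Homogenates were crosslinked with ultraviolet light and tau complexes were pulled down on magnetic beads with an antibody to tau phosphorylated at S396 (pS396), a method called CLIP. CLIP RNA was labelled with Cy5 and the RNA of the supernatant with Cy3, 1 ug each, and both were hybridised together on 1 array per sample, with 3 PS19 and 3 WT arrays. The labels give no age or sex, and the number of animals behind a sample is not stated, so p-values measure the spread between these samples. Dyes were not swapped, so a dye effect on a probe cannot be told apart from its CLIP over supernatant ratio, and no pull-down with a control antibody was among the arrays.

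MicroRNA hairpins are cut into a 5p and a 3p arm, and the arm loaded into an Argonaute protein pairs with messenger RNAs mainly through its seed, bases 2 to 8. The 5p arms of the miR-30 family share 1 seed and are usually the more abundant guide strands, whereas the 3p arms carry other seeds. The family is widely expressed, brain included, and in human cells and tissue miR-30a-5p is known to repress the messages of the autophagy protein Beclin 1 and of the neurotrophin BDNF.

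The 6 mature sequences are shown because their near-identity decides how far the members can be separated on an array. All 6 matched RefSeq by name (assembly GRCm38.p6). They are written 5′ to 3′ with the seed in capitals.
miR-30a-5p: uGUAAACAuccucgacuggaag
miR-30e-5p: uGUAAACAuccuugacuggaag
miR-30a-3p: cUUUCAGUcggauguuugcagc
miR-30e-3p: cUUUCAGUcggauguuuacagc
miR-30c-1-3p: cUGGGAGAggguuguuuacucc
miR-30c-2-3p: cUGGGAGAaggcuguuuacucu
The seed GUAAACA was shared by both 5p arms, UUUCAGU by the 3p arms of miR-30a and miR-30e, and UGGGAGA by the 3p arms of the miR-30c copies. Counted from 1 at the 5′ end, the 5p arms of miR-30a and miR-30e differ by the single substitution C13U and their 3p arms by G18A. The miR-30c 3p arms differ at 3 positions, G9A, U12C and C22U. Probe sequences were not used here, and whether a probe separates arms that differ by 1 base was not tested, so values of miR-30a and miR-30e are uncertain as readings of 1 gene.

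The hairpins with both arms present are shown with the arms in capitals, as the pairing of the arms is the basis of the arm comparison.
Mir30a: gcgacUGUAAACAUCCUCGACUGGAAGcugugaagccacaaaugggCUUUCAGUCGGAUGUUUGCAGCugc
Mir30e: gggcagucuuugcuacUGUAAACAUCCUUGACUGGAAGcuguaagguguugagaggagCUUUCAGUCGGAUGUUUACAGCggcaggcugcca
Mir30a lies at chr1:23272269-23272339 on the plus strand, with its 5p arm at chr1:23272274-23272295 and its 3p arm at chr1:23272315-23272336. Mir30c-2, the source of miR-30c-2-3p (chr1:23291754-23291775), lies on the same strand of chromosome 1. No other gene of the RefSeq table spans either of these hairpins. Mir30e lies at chr4:120772606-120772697 on the minus strand, with its 5p arm at chr4:120772660-120772681 and its 3p arm at chr4:120772618-120772639, and the table places Mir30f on the same interval. Mir30c-1, the source of miR-30c-1-3p (chr4:120769546-120769567), lies beside it on the minus strand. Both chromosome 4 hairpins lie within the span of the protein-coding gene Nfyc, a subunit of the CCAAT-binding factor NF-Y; exons and introns were not given in the table.

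Levels are log2 processed signals averaged over an RNA's probes, minus the 75th percentile, on the same array, of RNAs that every array read well above background. They compare 1 RNA between arrays, not 1 RNA with another. An RNA counts as well above background on an array if any of its probes was flagged so there. The share of probes well above background was 37.6% to 49.4% on PS19 arrays and 10.6% to 44.2% on WT arrays in the CLIP channel, and 35.5% to 63.2% and 40.2% to 55.1% in the supernatant channel. One scan held PS19 1 with WT 2, a different one held PS19 2 with PS19 3, and the other WT arrays had a scan each, so scan and genotype overlap only in part. WT 1 and WT 3 had the lowest shares in the CLIP channel, 10.6% and 24.7%, and were scanned at other voltages, 386 and 421 in red and 304 and 288 in green, against 420 and 355 on all other arrays. WT 3 also stood apart in several members. Values with each array left out are given for the fitted differences, and the part of scan settings in them was not tested. With scan as a random block, the correlation of arrays in a scan was estimated at 0.976 for the CLIP level, 0.719 for the supernatant level and 0.369 for the ratio. The fit in use takes all arrays as independent, so its SEs and p-values leave this correlation out. Among 8 microRNAs listed as neuronal, 5 were named and 4 of these were well above background in the supernatant on at least 3 arrays, with mean supernatant levels of -2.60 to -1.90 on PS19 arrays and -2.98 to -2.46 on WT arrays. The oligodendrocyte, microglial and erythroid lists had 1 named member each and the choroid plexus list 4, all well above background in the supernatant on at least 3 arrays. The mean supernatant level of the choroid plexus list was -2.64 to -2.46 on PS19 arrays and -3.57 to -2.98 on WT arrays. The microglial list's named member, miR-155-5p, read -0.52 to -0.20 on PS19 arrays and -1.87 to -0.62 on WT arrays in the supernatant. The choroid plexus and microglial lists were thus both higher on each PS19 array than on any WT array. For miR-155-5p the nearest arrays, at -0.52 and -0.62, were close. The share of all RNAs that lay higher in PS19 without overlap was not counted, so these separations have no background here. The oligodendrocyte member read -2.10 to -1.82 on PS19 arrays and -3.81 to -2.04 on WT arrays, and the erythroid member -1.90 to -1.41 and -4.34 to -1.81. In the pull-down the neuronal list averaged -4.68 to -4.34 on PS19 arrays and -5.79 to -4.96 on WT arrays, without overlap. The oligodendrocyte (-4.66 to -3.83 and -7.52 to -4.07), microglial (-2.44 to -1.88 and -4.85 to -2.03), erythroid (-3.79 to -2.84 and -7.93 to -3.11) and choroid plexus (-5.15 to -4.59 and -7.27 to -4.83) lists overlapped there. With the scaling in use, the median RNA was itself 0.85 higher in PS19 in the pull-down. There, 124 of 2356 tested RNAs (5.26%) did not overlap. The endothelial and vascular smooth muscle lists were not analysed here. The part of cell composition in the values below was not tested, and fewer cells of a type cannot be told apart from less RNA per cell.

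In the pull-down, none of the 6 miR-30 arms passed the test of PS19 against WT. The genotypes overlapped in each arm, while 124 of 2356 tested RNAs (5.26%) had CLIP levels that did not overlap, and levels on PS19 1 and WT 2, the pair sharing a scan, were close in the 5 members with a value on both. CLIP levels of miR-30a-5p were -3.62, -4.77 and -4.87 on PS19 arrays and -6.30, -3.89 and -6.30 on WT arrays. Those of miR-30e-5p were -3.46, -4.57 and -4.15 on PS19 arrays and -6.09, -3.36 and -5.42 on WT arrays. In both 5p arms all PS19 arrays lay above WT 1 and WT 3, the arrays with the lowest CLIP shares, while WT 2 lay within or above the PS19 values, so the groups overlapped. In the pull-down 3 PS19 arrays and 1 WT array read miR-30a-5p well above background, and 3 PS19 arrays and 2 WT arrays read miR-30e-5p so.

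The 3p arms of the same hairpins spread further in the pull-down. CLIP levels of miR-30a-3p were -2.54, -4.81 and -5.17 on PS19 arrays and -6.06, -2.82 and -7.28 on WT arrays. For miR-30e-3p they were -2.59, -5.76 and -4.96 on PS19 arrays and -6.23, -2.82 and -7.86 on WT arrays. PS19 1 and WT 2 were again the highest arrays and WT 3 the lowest. In the pull-down 3 PS19 arrays and 1 WT array read miR-30a-3p well above background, and 2 PS19 arrays and 1 WT array read miR-30e-3p so.

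Both miR-30c 3p arms were well above background in the pull-down on all 6 arrays, by the rule that any probe suffices. This came from probe 3 of miR-30c-1-3p and probes 2 and 4 of miR-30c-2-3p. The other probes of these arms were not above background on every WT array. CLIP levels of miR-30c-1-3p were -2.29, -3.11 and -3.51 on PS19 arrays and -3.82 and -2.24 on WT 1 and WT 2. Those of miR-30c-2-3p were -1.11, -2.05 and -1.88 on PS19 arrays and -2.63 and -1.11 on WT 1 and WT 3. The missing values are outlier spots, on WT 3 for miR-30c-1-3p and on WT 2 for miR-30c-2-3p. In neither arm were the genotypes separated.

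**Figure D1:**
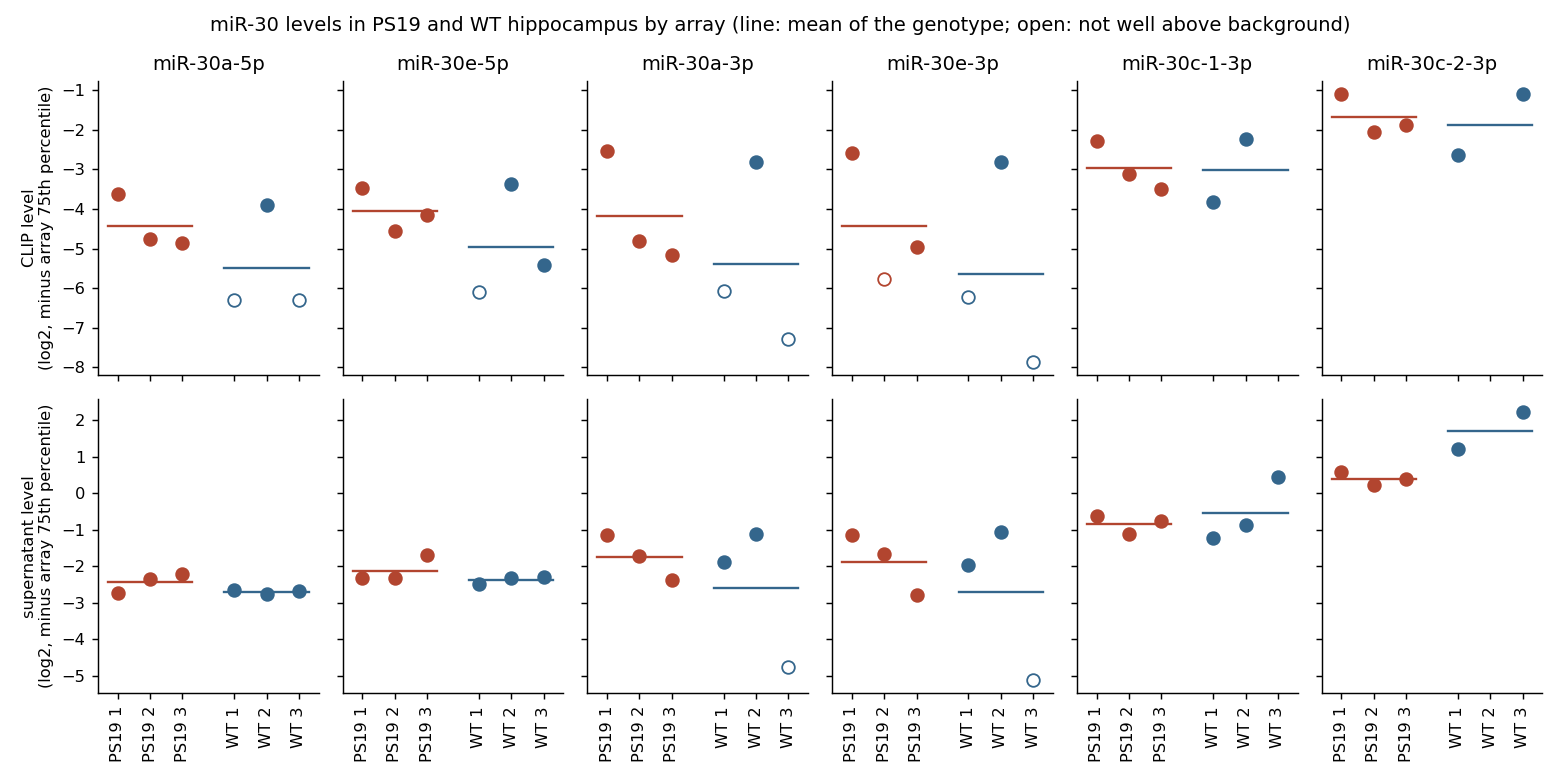
CLIP levels (upper row) and supernatant levels (lower row) of the 6 miR-30 arms on each array, in log2 units relative to the array's 75th percentile, PS19 in red and WT in blue. Points are arrays, lines are genotype means over the arrays with a value, and open points are not well above background. Supernatant levels of miR-30a-5p lie within a range of 0.55, while those of miR-30a-3p span 3.65.

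In the limma fit of the CLIP level, 0 of 2356 RNAs (0%) passed at a Benjamini-Hochberg adjusted p under 0.05, and 51 (2.16%) had an unadjusted p under 0.05, none of them a miR-30 arm. With the scaling in use, the median RNA was higher by 0.85 in PS19. Differences are given relative to it, while the p-values test the scaled level itself. The median RNA was at -0.04 with the 75th percentile over all probes, 0.11 with quantile normalisation and 1.17 with no scaling. The authors' values put it at 0.07. Its 0.85 therefore depends on the scaling and is not read as more RNA in PS19 pull-downs. With the scaling in use, 4 miR-30 arms lay above the median RNA and 2 below, with a median of 0.14 relative to it. The largest was miR-30a-3p at 0.36 (SE 1.04, adjusted p = 0.773 in limma, n = 3 per genotype) and the lowest miR-30c-1-3p at -0.79 (SE 1.16, adjusted p = 0.972 in limma), which ran from -1.35 without WT 1 to -0.40 without WT 3. The values of miR-30e-3p, miR-30a-5p and miR-30e-5p were 0.35, 0.23 and 0.05, and miR-30c-2-3p was at -0.66. The authors' deposited table lists log2 fold changes from 0.41 for miR-30a-3p to -0.95 for miR-30c-2-3p, with -0.93 for miR-30c-1-3p and an FDR of 0.999 for each of the 6 arms. That table is on the authors' own scale and holds the outlier spots. With these left out, the authors' values gave 0.09 for miR-30c-1-3p relative to the median RNA, so in the authors' values its direction changed when the WT 3 value that holds the outlier spot was left out. With the scaling in use, the estimates before subtracting the median RNA were 0.06 for miR-30c-1-3p and 0.19 for miR-30c-2-3p. In that scaling both miR-30c arms are thus negative only relative to the median RNA. With the 75th percentile over all probes they were -0.47 and -1.33 relative to a median RNA at -0.04. The deposited fold changes of -0.93 and -0.95 are not taken relative to the median RNA.

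Within the shared scan, PS19 1 minus WT 2 relative to the median RNA was 0.15 for miR-30a-5p, -0.23 for miR-30e-5p, 0.15 for miR-30a-3p, 0.10 for miR-30e-3p and -0.18 for miR-30c-1-3p. This is 1 array per genotype with no test, and the median absolute value over all tested RNAs was 0.17. Leaving out WT 1 turned the fitted difference of miR-30e-5p to -0.29 and left miR-30a-5p at 0.06. Leaving out WT 3 turned the fitted difference of miR-30a-3p to -0.20, of miR-30e-3p to -0.37 and of miR-30c-2-3p to 0.49. With array weights, limma called 1478 of the 2356 RNAs (62.7%), among them miR-30a-5p (0.34 relative to the median RNA, SE 0.44, adjusted p = 0.00807) and miR-30e-5p (0.56, SE 0.44, adjusted p = 0.00387). That share is the background against which these calls stand.

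In the supernatant, the 5p arms moved little between arrays. Only miR-30c-2-3p was lower on every PS19 array than on its WT arrays with a value, and it did not pass the adjusted test. Those WT arrays, WT 1 and WT 3, are the arrays scanned at other voltages. Supernatant levels of miR-30a-5p were -2.74, -2.34 and -2.22 on PS19 arrays and -2.66, -2.77 and -2.67 on WT arrays. Those of miR-30e-5p were -2.33, -2.33 and -1.69 on PS19 arrays and -2.48, -2.33 and -2.30 on WT arrays. All 6 arrays read both arms well above background. The range over the 6 arrays was 0.55 for miR-30a-5p and 0.79 for miR-30e-5p, against a median range of 1.56 over the 3668 tested RNAs with 6 values; 6.27% and 16.7% of those RNAs had a smaller range. Without WT 3 the ranges were the same, 0.55 and 0.79, but the median range was 1.07 and the shares of RNAs with a smaller range were 16.3% and 34%. Both arms are means over 5 probes, whereas 8555 of the 10935 RNAs before filtering are single unnamed probes, so these ranges are not like for like. Single probes ranged over 0.50 to 1.35 in miR-30a-5p and 0.29 to 3.23 in miR-30e-5p.

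The 3p arms of these hairpins behaved otherwise in the supernatant. Levels of miR-30a-3p were -1.15, -1.71 and -2.37 on PS19 arrays and -1.88, -1.12 and -4.77 on WT arrays. Levels of miR-30e-3p were -1.15, -1.66 and -2.80 on PS19 arrays and -1.96, -1.07 and -5.11 on WT arrays. WT 3 was far below the other arrays in both, and there neither signal was well above background. The range of 3.65 for miR-30a-3p and 4.04 for miR-30e-3p became 1.25 and 1.73 without WT 3, against 1.07 for the median RNA without that array.

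Supernatant levels of miR-30c-2-3p were 0.58, 0.22 and 0.39 on PS19 arrays and 1.21 and 2.21 on WT 1 and WT 3. With the outlier spot kept, WT 2 read 0.76, which also lies above every PS19 value. WT 2 shared its scan with PS19 1, which read 0.58. WT 1 and WT 3 were scanned at 304 and 288 in green, against 355 on every PS19 array. In the fitted difference, genotype and scan voltage therefore cannot be told apart. For miR-30c-1-3p the levels were -0.62, -1.11 and -0.75 on PS19 arrays and -1.23, -0.87 and 0.44 on WT arrays, and the groups overlapped. In limma, 0 of 3727 RNAs (0%) passed for the supernatant, 104 (2.79%) had an unadjusted p under 0.05, and 112 (3.01%) lay lower in PS19 with no overlap. The difference of miR-30c-2-3p was -1.31 (SE 0.43, unadjusted p = 0.0257, adjusted p = 0.928 in limma, n = 3 PS19 and 2 WT arrays), or -1.40 relative to the median RNA, and it was the only miR-30 arm among the 104. The other 5 arms lay between -0.37 and 0.75 relative to the median RNA, with an adjusted p of 0.928 each in limma. Without WT 3, miR-30a-3p came to -0.22, miR-30e-3p to -0.34, miR-30c-1-3p to 0.24 and miR-30c-2-3p to -0.79.

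**Figure D2:**
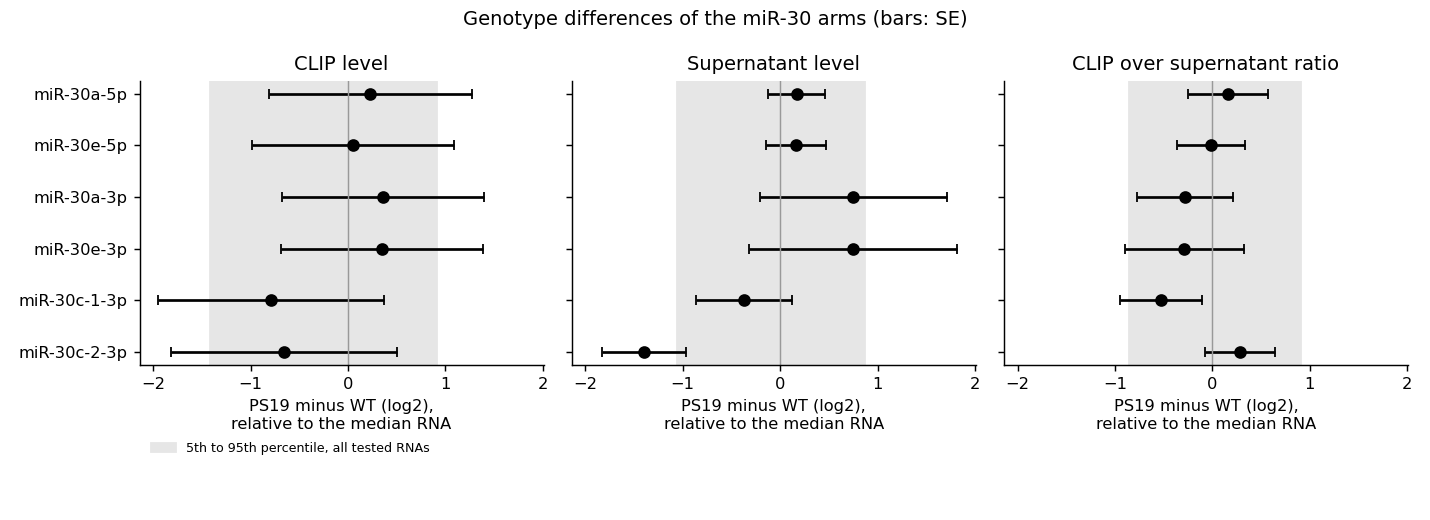
PS19 minus WT difference of each miR-30 arm in the CLIP level, the supernatant level and the CLIP over supernatant ratio, in log2 units relative to the median of all tested RNAs. Points are limma estimates, bars are SEs, and grey bands run from the 5th to the 95th percentile of the estimates of all tested RNAs. Only the supernatant value of miR-30c-2-3p, at -1.40, lies outside its band, which ends at -1.06.

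The low supernatant value of miR-30c-2-3p was largest in 1 of its 4 probes. On the scaled supernatant axis its probe 4 read 5.68, 5.47 and 5.08 on PS19 arrays and 7.74, 6.80 (the outlier spot) and 8.05 on WT arrays. Fitted probe by probe, which was chosen after seeing the data, probe 4 differed by -2.51 (SE 0.34, unadjusted p = 0.000557, adjusted p = 0.936 in limma), with the outlier spot left out. The WT values of probe 4 in that fit are those of WT 1 and WT 3, the arrays with other voltages. The other 3 probes differed by -0.81, -1.13 and -0.01. The same probe's CLIP level was 4.11, 2.98 and 2.66 on PS19 arrays and 4.09, 5.11 (an outlier spot) and 4.74 on WT arrays. In the pull-down WT 1 thus lay below PS19 1, and the groups overlapped.

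The probes linked to the miR-30c arms disagreed far more than those of the other members. The files do not annotate probes with names; the link rests on the match of the authors' fold change and p, and probe annotation was not used here. Within an array, the 4 probes of miR-30c-2-3p spanned 7.62 to 10.98 log2 units in the supernatant, with a median of 9.19, and 99.8% of the 961 named RNAs with several probes had a smaller median span. The 3 probes of miR-30c-1-3p had a median span of 4.01, where 96.5% were smaller. For comparison, the median span was 0.43 in miR-30a-5p, 0.61 in miR-30e-5p, 0.35 in miR-30a-3p and 0.14 in miR-30e-3p, and 0.88 in the median RNA. A pair of the miR-30c probes, one from each arm, also shared a high value on WT 3. Probe 3 of miR-30c-1-3p read 1.18, 1.65 and 1.61 on PS19 arrays and 0.91, 1.23 and 4.95 on WT arrays in the supernatant. Probe 2 of miR-30c-2-3p read 1.24, 1.43 and 1.31 on PS19 arrays and 1.54, 1.21 and 4.54 on WT arrays. Averages over these probes therefore mix readings of different size, and a value for either miR-30c arm depends on which probe is read. In miR-30e-5p, probe 5 alone was high on PS19 3, where the span of its 5 probes was 3.26 in the supernatant and 3.06 in the pull-down.

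**Figure D3:**
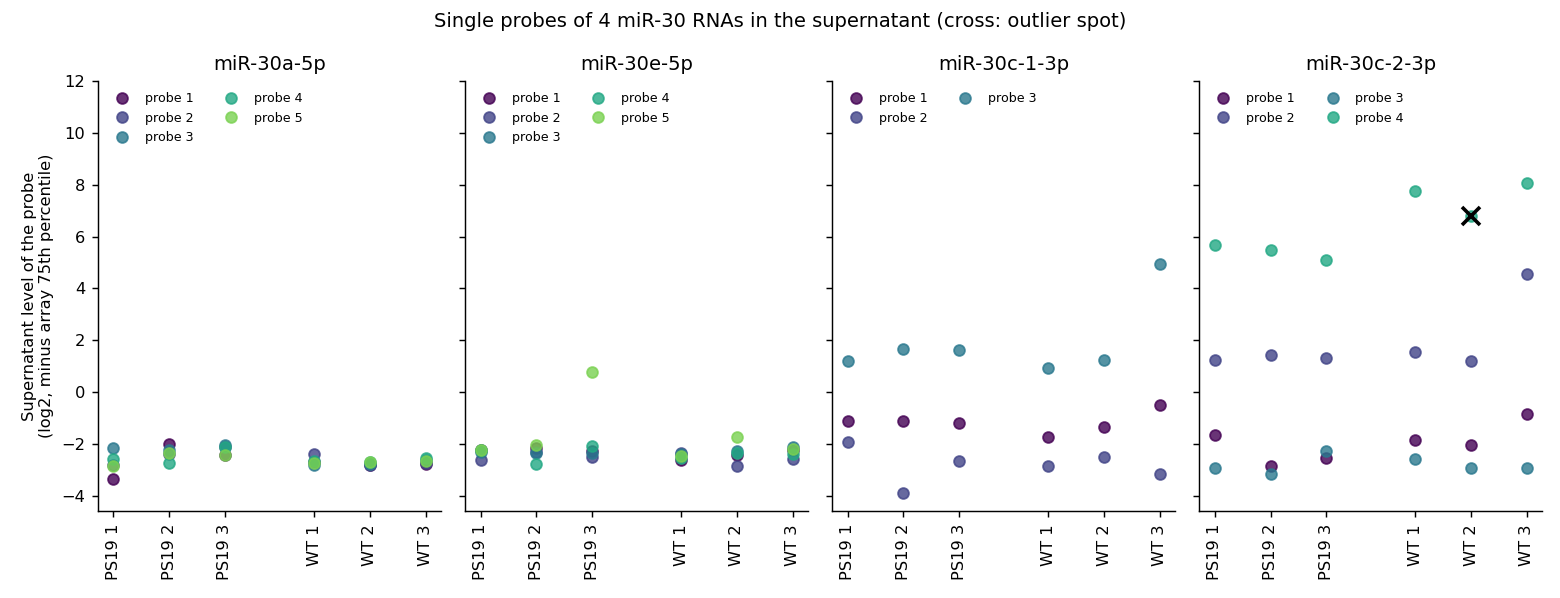
Supernatant level of each probe of 4 miR-30 RNAs by array, in log2 units relative to the array's 75th percentile; colours are probes and the cross is an outlier spot. The probes of miR-30a-5p and miR-30e-5p lie together apart from 1 on PS19 3, while the probes of miR-30c-2-3p spread over 7.62 to 10.98 units within an array and its probe 4 is lower on the PS19 arrays.

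The ratio of CLIP over supernatant signal, in log2 and centred on each array's median, is relative to the median RNA of the same array. Both signals had already been dye-normalised by the scanner software, and the part of this step in the ratios was not tested. No miR-30 arm passed the test for a ratio away from 0, and none passed the test between genotypes. For miR-30a-5p the ratio was 0.73, 0.01 and -0.32 on PS19 arrays and -0.26, 0.53 and -0.28 on WT arrays. For miR-30e-5p it was 0.47, 0.21 and -0.13 on PS19 arrays and -0.23, 0.63 and 0.24 on WT arrays. Both 5p arms lay on either side of 0 in each genotype, with PS19 1 and WT 2 the highest arrays of their genotypes. The CLIP signals behind the ratios of both 5p arms on WT 1, and of miR-30a-5p on WT 3, were not well above background.

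The ratio of miR-30a-3p was 0.22, -0.66 and -0.46 on PS19 arrays and -0.80, -0.04 and 0.84 on WT arrays. For miR-30e-3p it was 0.16, -1.66 and 0.18 on PS19 arrays and -0.89, -0.09 and 0.60 on WT arrays. The lowest value, on PS19 2, rests on a CLIP signal not well above background. The same holds for both 3p arms on WT 1, and on WT 3 neither channel was above it for either arm. The ratio of miR-30c-1-3p was -0.06, 0.44 and -0.43 on PS19 arrays and 0.78 and 0.29 on WT 1 and WT 2, and that of miR-30c-2-3p -0.09, 0.17 and 0.07 on PS19 arrays and -0.46 and 0.04 on WT 1 and WT 3. With a range of 0.63 over its 5 arrays, miR-30c-2-3p had the narrowest ratio of the 6, although its level moved by 1.98 in the supernatant. The part of dye normalisation in this narrow range was not tested either.

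**Figure D4:**
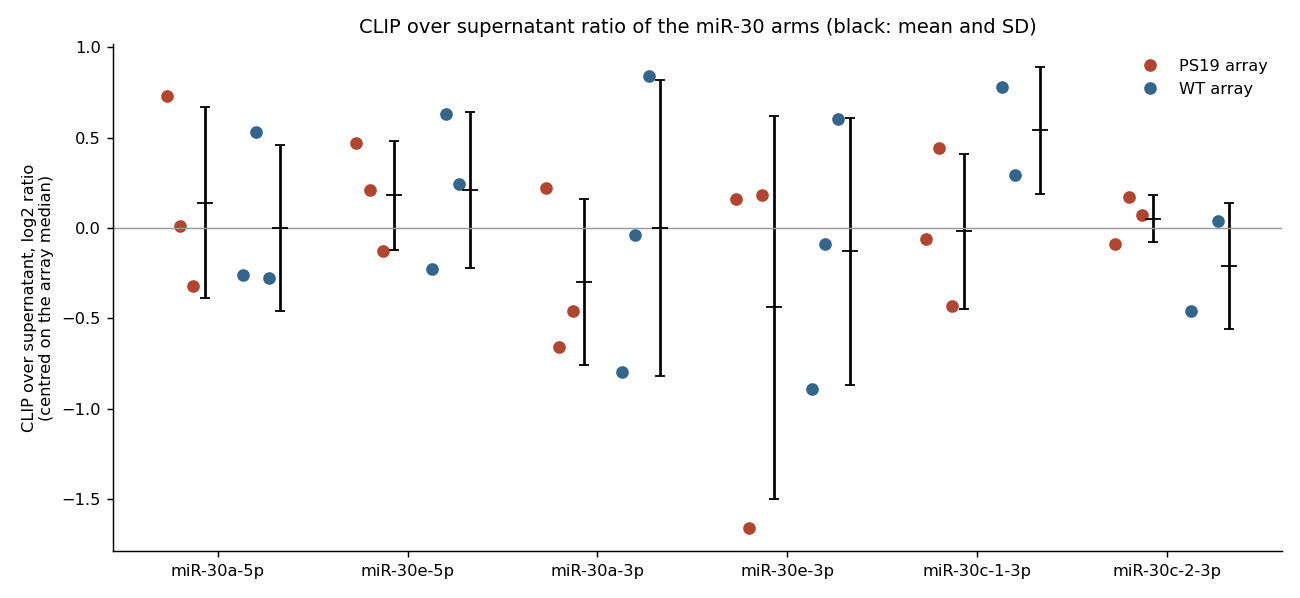
CLIP over supernatant log2 ratio of the 6 miR-30 arms, centred on each array's median, with PS19 arrays in red and WT arrays in blue. Black marks are the genotype mean and SD (n = 3, or 2 for WT in the miR-30c arms). Genotypes overlap in all 6 arms and the values lie on either side of 0.

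Averaged over both genotypes, 9 of 3971 RNAs (0.227%) had a ratio that passed at an adjusted p under 0.05 in limma, and none was a miR-30 arm. The mean ratios were 0.07 for miR-30a-5p (SE 0.20), 0.20 for miR-30e-5p (SE 0.18), -0.15 for miR-30a-3p (SE 0.24), -0.28 for miR-30e-3p (SE 0.31), 0.26 for miR-30c-1-3p (SE 0.21) and -0.08 for miR-30c-2-3p (SE 0.18). Adjusted p-values lay between 0.648 and 0.905 in limma. Within single genotypes 4 RNAs (0.101%) passed in PS19 and 3 (0.0755%) in WT, again without a miR-30 arm. Between genotypes 0 of 3971 RNAs (0%) passed in limma, while 165 (4.16%) had an unadjusted p under 0.05 and 354 (8.91%) had ratios that did not overlap, none of either being a miR-30 arm. The PS19 minus WT differences of the ratio relative to the median RNA were -0.53 for miR-30c-1-3p (SE 0.42), -0.29 for miR-30e-3p (SE 0.61), -0.28 for miR-30a-3p (SE 0.49), -0.01 for miR-30e-5p (SE 0.35), 0.16 for miR-30a-5p (SE 0.41) and 0.28 for miR-30c-2-3p (SE 0.36), with adjusted p of 0.992 to 0.995 in limma. The median over the 6 was -0.15, with 2 arms above and 4 below the median RNA. In the shared scan the differences ran from -0.36 for miR-30c-1-3p to 0.25 for miR-30a-3p, against a median absolute value of 0.28 over all RNAs.

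The arms of 1 hairpin were compared through the difference of their ratios, 5p minus 3p, for which 192 hairpins had both arms named and 189 were tested. In miR-30a this difference was 0.51, 0.67 and 0.14 on PS19 arrays and 0.54, 0.57 and -1.12 on WT arrays. The 5p arm had the higher ratio on 5 of 6 arrays, the exception being WT 3. On WT 3 the CLIP signals of both arms and the supernatant signal of the 3p arm were not well above background, and on WT 1, 1 of the 5, neither were the CLIP signals of both arms. In miR-30e it was 0.31, 1.86 and -0.30 on PS19 arrays and 0.66, 0.72 and -0.36 on WT arrays, higher for the 5p arm on 4 of 6. Of these 4, PS19 2, with the largest value, rests on a 3p CLIP signal not well above background. On WT 1 the CLIP signals of both miR-30e arms were not well above it. On WT 3 the 3p arm was not in either channel. The mean over genotypes was 0.22 (SE 0.27, adjusted p = 0.776) for miR-30a and 0.48 (SE 0.31, adjusted p = 0.493) for miR-30e in limma, where 4 of the 189 hairpins (2.12%) passed. With 1 array left out the miR-30a value lay between 0.07 (without WT 2) and 0.50 (without WT 3), and was 0.08 without WT 1. The miR-30e value lay between 0.17 (without PS19 2) and 0.72 (without PS19 3). PS19 minus WT the arm difference was 0.45 (SE 0.53) in miR-30a and 0.28 (SE 0.62) in miR-30e, each with an adjusted p of 0.951 in limma, where 0 of 189 hairpins (0%) passed and 2 (1.06%) had an unadjusted p under 0.05. Without WT 3 the miR-30a difference was -0.11, and without PS19 2 the miR-30e difference was -0.34.

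The balance of 5p against 3p level within an array was nearly equal on the arrays of different genotype that shared a scan, a description chosen after seeing the data. Each value joins different probes, so only its change from array to array is read. In the supernatant the 5p minus 3p level of miR-30a was -1.59, -0.63 and 0.15 on PS19 arrays and -0.78, -1.64 and 2.10 on WT arrays. For miR-30e it was -1.18, -0.67 and 1.11 on PS19 arrays and -0.52, -1.26 and 2.80 on WT arrays. PS19 1 and WT 2, of different genotype but 1 scan, differed by 0.06 for miR-30a and 0.08 for miR-30e. The other 8 pairs of a PS19 and a WT array differed by 0.15 to 3.69 for miR-30a and by 0.15 to 3.98 for miR-30e. The upper ends come from WT 3, where neither 3p arm was well above background. Among pairs without WT 3 the largest differences were 1.79 for miR-30a and 2.37 for miR-30e, both between PS19 3 and WT 2.

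The pull-down gave a similar order. The 5p minus 3p CLIP level of miR-30a was -1.08, 0.04 and 0.30 on PS19 arrays and -0.24, -1.07 and 0.98 on WT arrays, and that of miR-30e was -0.87, 1.19 and 0.81 on PS19 arrays and 0.14, -0.54 and 2.45 on WT arrays. The pair of the shared scan differed by 0.33 for miR-30e and by 0.00 for miR-30a, the other 8 pairs by 0.66 to 3.31 and by 0.28 to 2.06. Several of these pairs rest on CLIP signals not well above background. These were both arms of both hairpins on WT 1, both arms of miR-30a and the 3p arm of miR-30e on WT 3, and miR-30e-3p on PS19 2. PS19 3 and WT 2, where all were well above background, differed by 1.35 for miR-30e and 1.37 for miR-30a. This was not particular to the family. Over the 168 hairpins read in the supernatant the median absolute difference was 0.22 for the pair of the shared scan and 0.45 to 1.29 for the others, and over 173 hairpins in the pull-down it was 0.29 and 0.58 to 1.39. The arrays PS19 2 and PS19 3, which also shared a scan, differed by more in the supernatant. They read -0.63 and 0.15 for miR-30a and -0.67 and 1.11 for miR-30e. The median over all hairpins was not counted for this pair.

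**Figure D5:**
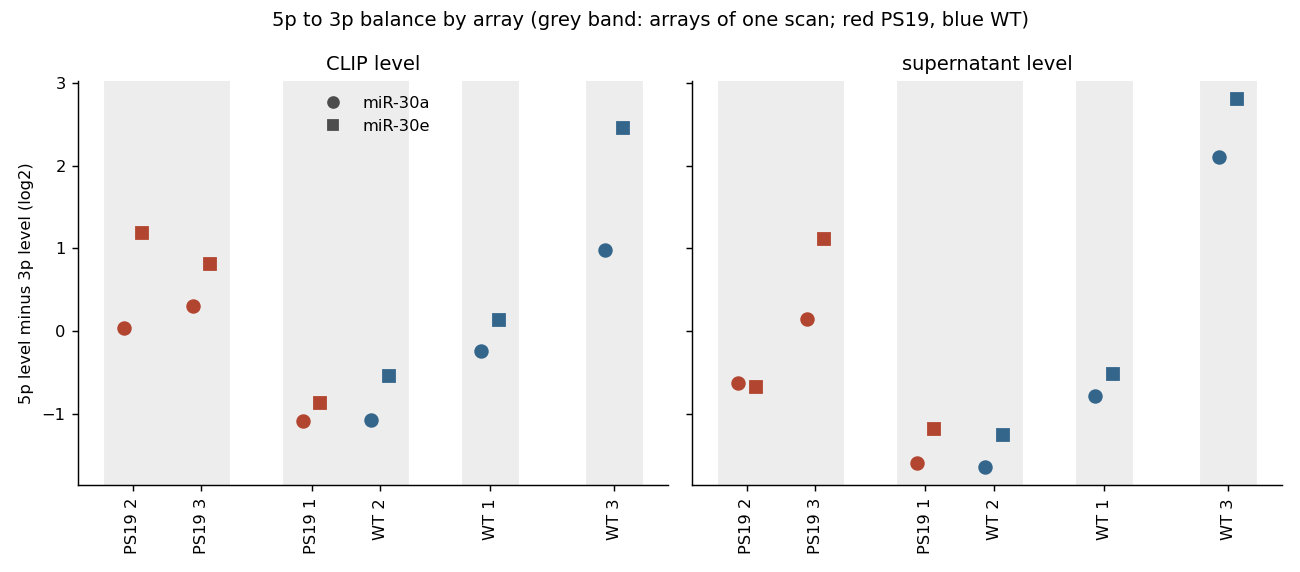
Level of the 5p arm minus level of the 3p arm of miR-30a (circles) and miR-30e (squares) on each array, in log2 units, for the pull-down and the supernatant. Grey bands join arrays of 1 scan, PS19 is red and WT blue. PS19 1 and WT 2 lie close together, at -1.59 and -1.64 for miR-30a in the supernatant. WT 3 is highest, where neither 3p arm was well above background.

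Among other mature microRNAs with a seed of the family, miR-384-5p and miR-6958-5p were named. Their sequences show how far the likeness reaches beyond the capitals.
miR-384-5p: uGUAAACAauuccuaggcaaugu
miR-6958-5p: gUGGGAGAagaggcugcugugg
The miR-384-5p sequence lies at chrX:105344332-105344354 and that of miR-6958-5p at chr15:89185516-89185537, both on the minus strand. In rat hippocampus, miR-384-5p is known for a role in long-term potentiation. Its CLIP level was -4.44, -5.66 and -4.93 on PS19 arrays and -6.80, -5.09 and -6.90 on WT arrays, and its difference relative to the median RNA was 0.40 (SE 1.04, adjusted p = 0.773 in limma). Its ratio differed by -0.02 (SE 0.47, adjusted p = 0.995 in limma), and its supernatant signal, well above background on 2 of 6 arrays, was not tested. For miR-6958-5p the CLIP level was -3.53, -4.23 and -4.73 on PS19 arrays and -5.63, -3.52 and -5.50 on WT arrays. Its differences relative to the median RNA were -0.13 in the CLIP level, -0.07 in the supernatant and 0.04 in the ratio, with adjusted p of 0.774, 0.988 and 0.996 in limma. In both, PS19 1 was above the other PS19 arrays and WT 2 above the other WT arrays in the pull-down. The 5p arms of miR-30a and miR-30e had this order. So did miR-30a-3p, miR-30e-3p and, over the arrays with a value, miR-30c-1-3p, while miR-30c-2-3p had no value on WT 2. The order was therefore not particular to a seed, and the share of all RNAs with it was not counted.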

How the data were processed

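Per the file headers, the authors' scanner software (Agilent Feature Extraction, version 11.0.1.1) wrote intensity values after background subtraction and dye normalisation. The log2 values of the deposited value table were the red processed signal on the log2 scale less 1 offset per array. The authors' deposited table gives log2 fold changes, p-values and FDR by name; each of 2380 names matched 1 of 557616 candidate probe sets within 1e-09 (log2 fold change) and 1e-07 (p-value). An RNA with an outlier spot has no value on that array. Levels were scaled by the array's 75th percentile (550 RNAs in red, 1703 in green) and ratios centred on the median. Tested RNAs were well above background on 3 or more of 6 arrays, with at least 2 values per genotype. The test was limma 3.58.1 (R 4.3.3) with 1 mean per genotype at an adjusted p under 0.05. The fits were also run on simulated data with independent noise on each array. Those data leave out the correlation of arrays in a scan, so they do not check the p-values under that correlation. The arrays' number and their signal over background limit the precision. The members and lists were chosen with earlier results of these data known: named are all 6 arms, other microRNAs with a miR-30 seed and the 5 with the most similar ratio.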

Additional observations from a re-analysis of the deposited data

How the results depend on the processing

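The alternatives covered background correction, scaling, centring, filters, the variance model, array weights, probe summary, scan, replicate numbers, the authors' values and each array left out; keeping outlier spots and fitting each probe alone were chosen after seeing the data. Of 468 recomputed member values, 418 kept direction and call, 48 changed sign without a call at any setting, and 2 gained a call, miR-30a-5p and miR-30e-5p in the CLIP level with array weights. The cause was not tested in any of these. In the CLIP level the count of calls was 5 with normexp, 1478 with array weights, 18 with scan as a random block and 0 to 2 with 1 array left out. Calls in the ratio were 0 in PS19 and 0 on average with normexp, and in WT all 3 were lower, where the 3 calls of the fit in use were all higher. They were 0 in PS19, 0 in WT and 4 on average among RNAs well above background on all 6 arrays, and 0 in all 3 with a variance trend. With scan as a random block they were 2 in PS19 and 4 on average. With 1 array left out they were 2 to 4 in PS19, 0 to 3 in WT and 3 to 7 on average, and 3 to 9 for the arm difference. Deviations of same-numbered arrays from their genotype means in the CLIP level had correlations of -0.08, -0.52 and 0.32. With 3 arrays per genotype and scans shared in part, these cannot decide whether the numbers pair the samples. The fit in use took the samples as unpaired. With the replicate block 0 RNAs were called in each comparison of PS19 with WT, and miR-30c-2-3p in the supernatant came to -1.32.

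Signs turned as follows. Differences between genotypes in level and ratio are relative to the median RNA. Mean ratios and arm differences are given as fitted. With array weights the CLIP level of miR-30e-3p was -0.10, and supernatant levels were -0.02 (miR-30a-3p), 0.03 (miR-30c-1-3p) and -0.09 (miR-30e-3p). With scan as a random block the CLIP levels of miR-30c-2-3p and miR-30e-5p were 0.16 and -0.21. The authors' values, with outlier spots left out, gave 0.09 for miR-30c-1-3p. The brightest probe gave ratio differences of 0.00 (miR-30a-3p) and -0.35 (miR-30a-5p) and arm differences between genotypes of -0.35 (miR-30a) and -0.06 (miR-30e). Without centring the mean ratio of miR-30a-5p was -0.03, while that of the median RNA was -0.12, so miR-30a-5p still lay above the median RNA. With no filter the ratio difference of miR-30e-5p was 0.19. With normexp, whose offset of 50 compresses dim signals, the CLIP levels of miR-30a-5p, miR-30e-3p and miR-30e-5p were -0.01 each. Its ratio differences were 0.05 (miR-30a-3p), 0.33 (miR-30c-1-3p) and 0.02 (miR-30e-3p), the mean ratio of miR-30c-1-3p was -0.09 and both arm differences were -0.03.

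With 1 array left out, CLIP differences ranged from -0.20 to 0.99 (miR-30a-3p), -0.37 to 1.10 (miR-30e-3p), -0.29 to 0.20 (miR-30e-5p), 0.06 to 0.37 (miR-30a-5p), -1.35 to -0.40 (miR-30c-1-3p) and -1.32 to 0.49 (miR-30c-2-3p). Ratio differences ranged from -0.70 to 0.12 (miR-30a-3p), -0.13 to 0.45 (miR-30a-5p), -0.69 to 0.31 (miR-30e-3p), -0.24 to 0.22 (miR-30e-5p), -0.77 to -0.30 (miR-30c-1-3p) and 0.01 to 0.51 (miR-30c-2-3p). Supernatant differences ranged from -0.22 to 1.43 (miR-30a-3p), -0.34 to 1.52 (miR-30e-3p), -0.83 to 0.24 (miR-30c-1-3p), -0.10 to 0.30 (miR-30e-5p), 0.02 to 0.35 (miR-30a-5p) and -2.02 to -0.79 (miR-30c-2-3p). Mean ratios ranged from -0.36 to 0.05 (miR-30a-3p), -0.08 to 0.18 (miR-30a-5p), -0.21 to 0.04 (miR-30c-2-3p), -0.47 to 0.02 (miR-30e-3p), 0.14 to 0.38 (miR-30c-1-3p) and 0.10 to 0.31 (miR-30e-5p). Mean arm differences ranged from 0.07 to 0.50 (miR-30a) and 0.17 to 0.72 (miR-30e), and arm differences between genotypes from -0.11 to 0.73 (miR-30a) and -0.34 to 0.75 (miR-30e). Where this left a genotype with 1 value for a miR-30c arm, that value was assumed to vary like those of the other genotype.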

Other observations

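The mature microRNAs whose ratio followed the 5p arms most closely were taken from the 240 that were well above background in both channels on all 6 arrays. By Pearson's r over the 6 arrays, a description in which arrays of a shared scan are not independent, these were miR-665-3p (0.87), miR-378b (0.84), miR-6981-5p (0.83), miR-140-3p (0.82) and miR-378a-3p (0.82). The mean ratio of miR-30a-5p and miR-30e-5p was 0.60, 0.11 and -0.22 on PS19 arrays and -0.24, 0.58 and -0.02 on WT arrays. That of miR-665-3p was 0.40, 0.02 and 0.06 on PS19 arrays and 0.12, 0.48 and 0.06 on WT arrays, so both were highest on PS19 1 and WT 2.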
